A study of Homo sapiens with 15 samples.

Results

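Type IV collagen is the network-forming collagen of basement membranes, and its 6 chains are encoded by COL4A1 to COL4A6. The genes were taken as the array probes that carry a RefSeq transcript of one of these 6 symbols, which gave 1 probe per gene, each printed as 2 spots, among 19483 genes and 42405 probes in all. The genes were singled out with results of the same comparison already known, so their differences between the groups are given as a description with no p-value, and where the fit's calls on them are counted nothing is read from the count.

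The arrays were made from PE/CA-PJ41, an immortalised line of human oral squamous cell carcinoma cells, kept in supplemented RPMI1640 medium for 24 h before RNA extraction. By the labels the control cells (NCE) carried the empty transfection vector, whereas parts of the study's text call the control cells un-transfected. The CYGB+ cells carried human cytoglobin cDNA in pCMV6-Neo, with stable clones picked under G418. The methods name the arrayed CYGB+ cells as the single clone LST421, so the spread between arrays does not cover differences between clones. RNA was extracted on 3 occasions, and the labels give 3 biological replicates per group, with 3 array repeats each for NCE (9 arrays) and 2 each for CYGB+ (6 arrays). The first of the 2 numbers in each label, called array repeat here, is worded as a cell replicate and is not explained further. Nothing says that the replicates came from separately derived cultures, so the p-values below measure the spread between these samples.

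Each array was read in a green and a red channel. The labels give Cy3, the green dye, for every sample, and green values are used throughout. The methods text instead assigns Cy5 to the control RNA, and the RNA behind the red channel is not named by the labels, so red values are given beside green ones as a description and enter no test. Between 47.2% and 56.8% of probes were well above background per array. Slide 1 held 8 NCE arrays, and slide 2 held 1 NCE array with all 6 CYGB+ arrays. The median net green signal was 36.5 to 49.5 units on slide 1 and 6.5 to 19.5 units on slide 2. The probe for cytoglobin itself, the transgene, was bright in both groups, at 11.24 to 12.33 on the log2 scale on NCE arrays and 11.31 to 12.51 on CYGB+ arrays, with medians of 12.05 and 11.96. This probe did not separate the groups, so NCE and CYGB+ stand below for the libraries labelled so, and every direction rests on those labels. Genes of squamous epithelium were present in both groups. The mean level of 11 epithelial markers, among them KRT5, KRT14 and EPCAM, was 11.13 to 11.49 on NCE arrays and 10.97 to 11.49 on CYGB+ arrays. Of these 11 markers, 3 were lower in CYGB+ in limma, KRT19 by -0.66 (adjusted p = 0.0392), ITGB4 by -0.66 (adjusted p = 0.0345) and KRT6A by -0.46 (adjusted p = 0.0448), and none was higher, with KRT14 at 0.76 (adjusted p = 0.0679).

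The chains differ in where they are used. COL4A1 and COL4A2 chains join in the trimer found in nearly all basement membranes, COL4A3, COL4A4 and COL4A5 form the trimer of the kidney glomerulus, and COL4A5 and COL4A6 share a trimer known from skin, smooth muscle and other epithelia. The genes lie in head-to-head pairs, transcribed away from each other from a short shared stretch of DNA. In the RefSeq promoter table (GRCh38.p14) the start sites lay 127 bases apart for COL4A1 and COL4A2 on chromosome 13, 419 for COL4A3 and COL4A4 on chromosome 2, and 380 for COL4A5 and COL4A6 on chromosome X. A second COL4A6 start in that table lay 1416 bases from that of COL4A5, and the array probe does not say which start a transcript used.

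The DNA between starts is printed for COL4A5 and COL4A6, which changed together, and for COL4A1 and COL4A2, the pair that was well above background on every array, for comparison. Capitals mark GC boxes (GGGCGG or CCGCCC) and CCAAT boxes (CCAAT or ATTGG); each run reads 5′ to 3′ on the named strand.
COL4A5, 250 bases before the start, chrX:108439588-108439837, plus strand: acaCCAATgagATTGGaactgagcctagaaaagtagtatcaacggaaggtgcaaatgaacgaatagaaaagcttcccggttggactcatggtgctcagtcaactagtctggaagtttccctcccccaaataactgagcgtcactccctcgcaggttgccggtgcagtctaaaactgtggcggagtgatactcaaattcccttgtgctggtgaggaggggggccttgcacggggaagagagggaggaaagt
COL4A6, 250 bases before the first start, chrX:108439459-108439708, minus strand: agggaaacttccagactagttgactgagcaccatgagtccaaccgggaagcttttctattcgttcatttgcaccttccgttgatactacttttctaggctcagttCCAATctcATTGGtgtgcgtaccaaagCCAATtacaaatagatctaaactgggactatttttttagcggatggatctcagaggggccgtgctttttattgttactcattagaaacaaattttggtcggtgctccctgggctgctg
COL4A1/COL4A2, the 126 bases between the starts, chr13:110307158-110307283, plus strand: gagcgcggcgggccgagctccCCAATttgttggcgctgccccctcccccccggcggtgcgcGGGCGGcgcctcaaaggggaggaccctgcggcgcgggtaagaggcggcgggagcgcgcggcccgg
These boxes were counted over the whole 300-base windows, which also take in 50 bases from the start site on. The COL4A5 window held 2 CCAAT boxes and no GC box. That of the first COL4A6 start held 3 CCAAT boxes and no GC box, and that of the second 1 GC box and no CCAAT box. The COL4A5 and first COL4A6 windows share 121 bases, so 1 CCAAT and 1 ATTGG are the same letters read on opposite strands. The COL4A1 window held 2 GC boxes and 1 CCAAT box and the COL4A2 window 1 of each, with 226 shared bases. The COL4A3 window held 2 GC boxes and no CCAAT box, and the COL4A4 window held neither. No window held TATAAA or TTTATA. Among all 35116 windows of this length, 45.0% held a GC box, 34.6% a CCAAT box and 11.5% TATAAA or TTTATA, counted on both strands. GC content was 49.3% for COL4A5, 43.7% for the first COL4A6 start and 50% for the second. It was 67.7% to 77.7% for the windows of the other 4 genes. These are matches of letters and show no binding.

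COL4A6 was far higher on arrays labelled CYGB+. It encodes the α6 chain, which is found together with α5. Its green level by biological replicate was 5.99, 5.97 and 6.03 in NCE and 10.12, 10.00 and 10.32 in CYGB+ on the log2 scale. Every CYGB+ array stood above every NCE array: the NCE arrays ran from 5.86 to 6.18 and the CYGB+ arrays from 9.94 to 10.37. The scanner software called the probe well above background on 0 of 9 NCE arrays and on 6 of 6 CYGB+ arrays. The difference of replicate means was 4.15 ± 0.09 (SE, n = 3 against 3) on the log2 scale. As NCE gives only an upper limit, CYGB+ was at least 16.7-fold higher, computed from the NCE mean of the dimmest signal called well above background on each array, or the probe's own signal where that was higher. In a bulk sample, a change in the share of cells that use a gene and a change in its RNA per cell cannot be told apart.

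COL4A5 was also far higher on arrays labelled CYGB+, but its NCE arrays fell into separate levels. It encodes the α5 chain, whose loss causes X-linked Alport syndrome. Its replicate means were 6.46, 6.38 and 6.36 in NCE and 10.05, 9.90 and 10.03 in CYGB+. The difference of replicate means was 3.59 ± 0.06 (SE, n = 3 against 3). Because 6 of the 9 NCE arrays were below the call, it stands for a level at least 11.2-fold higher, computed with the same limit as for COL4A6. The 6 CYGB+ arrays, all well above background, ran from 9.79 to 10.28, above all NCE arrays. On the 3 NCE arrays of array repeat 1, COL4A5 read 7.62, 7.31 and 7.26 in biological replicates 1, 2 and 3, and all 3 were called well above background. On the 6 NCE arrays of repeats 2 and 3 it read 5.85 to 5.96, and none was called well above background. CYGB+ stood 6.05-fold above the repeat 1 arrays, and at least 15.2-fold above the limit from the other 6 arrays.

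**Figure D1:**
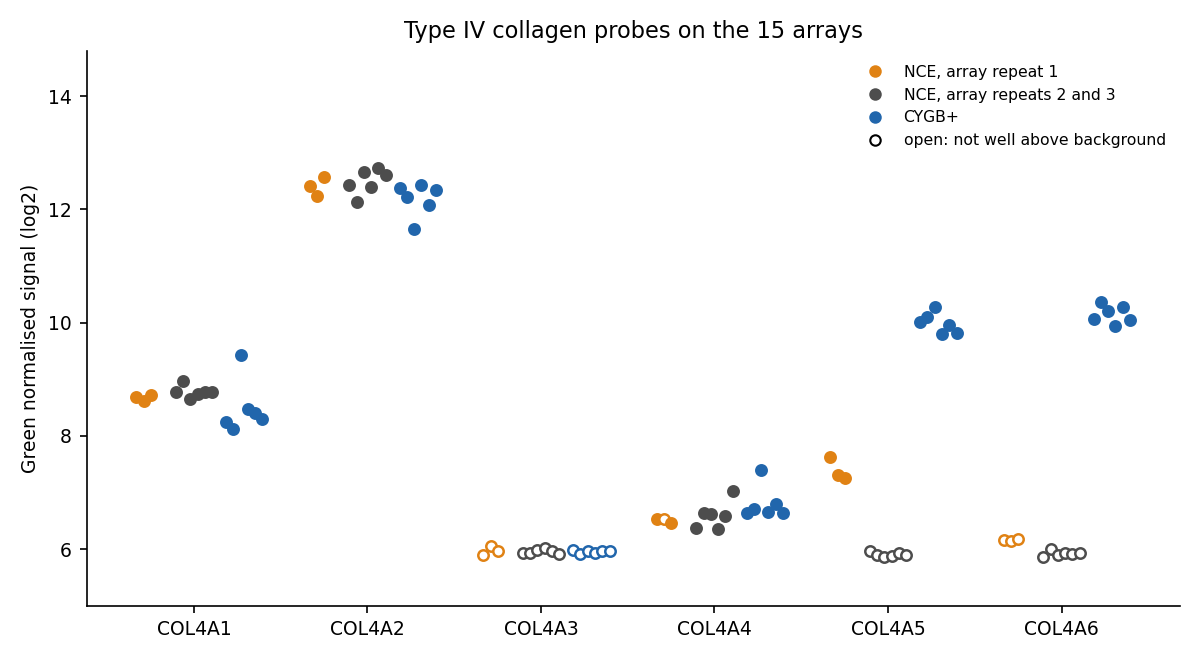
Green log2 normalised signal of the 6 type IV collagen probes on each of the 15 arrays, 1 point per array, filled where the probe was well above background. COL4A5 and COL4A6 sit between 9.79 and 10.37 on the CYGB+ arrays and at or below 7.62 on NCE arrays, while the groups overlap for COL4A1 to COL4A4.

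Over the array, 21993 probes passed a filter on dim signal. It asked for a call well above background on more than 0.5 of the arrays of at least 1 group, and 5 of the 6 collagen probes passed it, COL4A5 and COL4A6 through the CYGB+ arrays where they were high. Over all probes tested, 10.9% differed at a Benjamini-Hochberg adjusted p under 0.05 in limma (5.56% higher and 5.37% lower in CYGB+), and 2 of the 5 collagen probes, COL4A5 and COL4A6, were among the higher ones. Replicate means of the groups did not overlap for 33.9% of all tested probes, and for the same 2 collagen probes. Since this comparison chose the genes, nothing is read from those counts.

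Probes with the same detection pattern were counted as a description, since the background calls were part of how the genes were chosen. Of 42405 probes, 29 (0.0684%) were well above background on no NCE array and on every CYGB+ array, and COL4A6 was one of them. Its difference of 4.15 was followed by 0.90 for CCDC3, 0.78 for UCHL1 and 0.76 for SPRR1A, which were picked by rank within this set. The reverse pattern, every NCE and no CYGB+ array, was found for 10 probes (0.0236%). COL4A5 was the only probe (0.00236%) that was on for every CYGB+ array, on for the 3 NCE arrays of repeat 1 and off for the other 6 NCE arrays. If those 3 arrays are set aside, 51 probes (0.12%) were off on the NCE arrays and on for every CYGB+ array. The plot of the 29 probes ranked by difference shows the distance between COL4A6 and the rest of this set. The set was fixed by the detection pattern of COL4A6, so probes with other patterns are not in it. Ranked from the highest difference among all 21993 tested probes, COL4A6 stood at 2 and COL4A5 at 3.

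**Figure D2:**
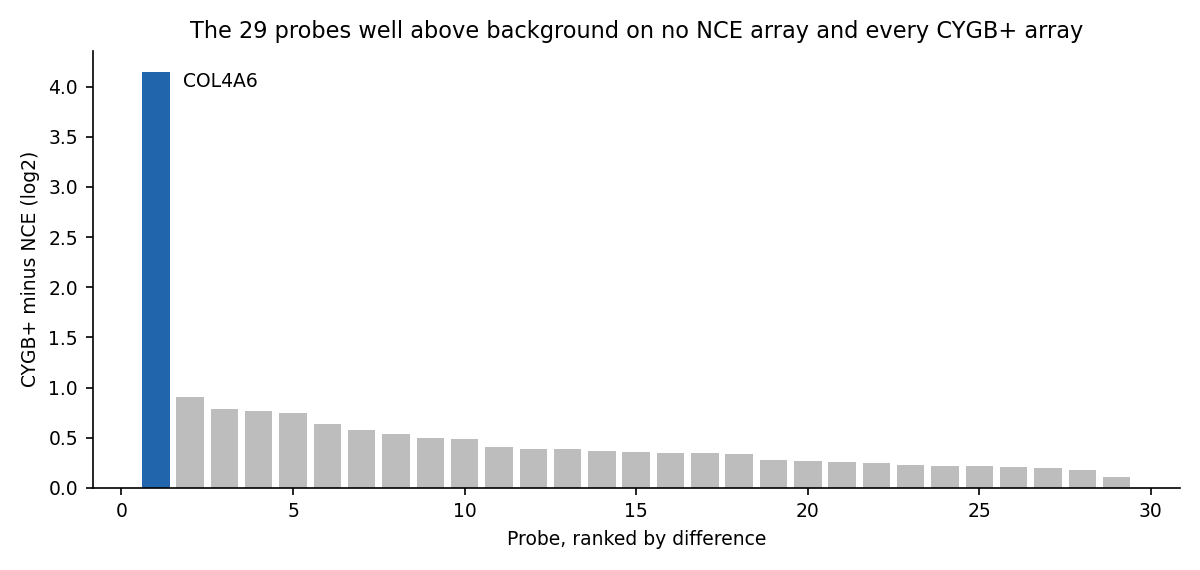
Difference in green log2 signal, CYGB+ minus NCE replicate means, for the 29 probes that were well above background on no NCE array and on every CYGB+ array, ranked by size. The COL4A6 bar reaches 4.15 and the next, CCDC3, 0.90.

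The differences of COL4A5 and COL4A6 were as large within 1 slide. On slide 2, which held both groups, the 1 NCE array read 5.90 for COL4A5 and the 6 CYGB+ arrays 9.79 to 10.28, a difference of 4.09. For COL4A6 that NCE array read 5.93 and the CYGB+ arrays 9.94 to 10.37, a difference of 4.22. With the slide as a term in a fit of single arrays, the differences were 4.17 for COL4A5 and 4.23 for COL4A6. One NCE array on that slide gives no spread of its own. Of the 15 arrays it also correlated least with its own group (median r = -0.16). The slide 2 values and every value with a slide term depend on it.

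The red channel separated the NCE arrays in the same way. On the 3 NCE arrays of repeat 1, red signal was 11.47 to 11.50 for COL4A5 and 11.40 to 11.79 for COL4A6, well above background on all 3. On the other 6 NCE arrays it was 6.11 to 6.28 and 6.10 to 6.39, well above background on none. On the CYGB+ arrays red signal was 11.43 to 12.06 for COL4A5 and 11.40 to 11.69 for COL4A6. The NCE arrays of repeat 1 thus matched the CYGB+ arrays in red for both genes, while in green COL4A6 stayed at 6.14 to 6.18 there, below the call, against 5.857 to 6.004 on repeats 2 and 3. Of the 29 probes with the pattern of COL4A6, 23 were well above background in red on all 3 of those arrays, and 9 of these on none of the other 6 NCE arrays. Whether the red signal has a part in the raised green level of COL4A5 was not tested. Without the repeat 1 arrays the green difference was 4.09 for COL4A5 and 4.23 for COL4A6.

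**Figure D3:**
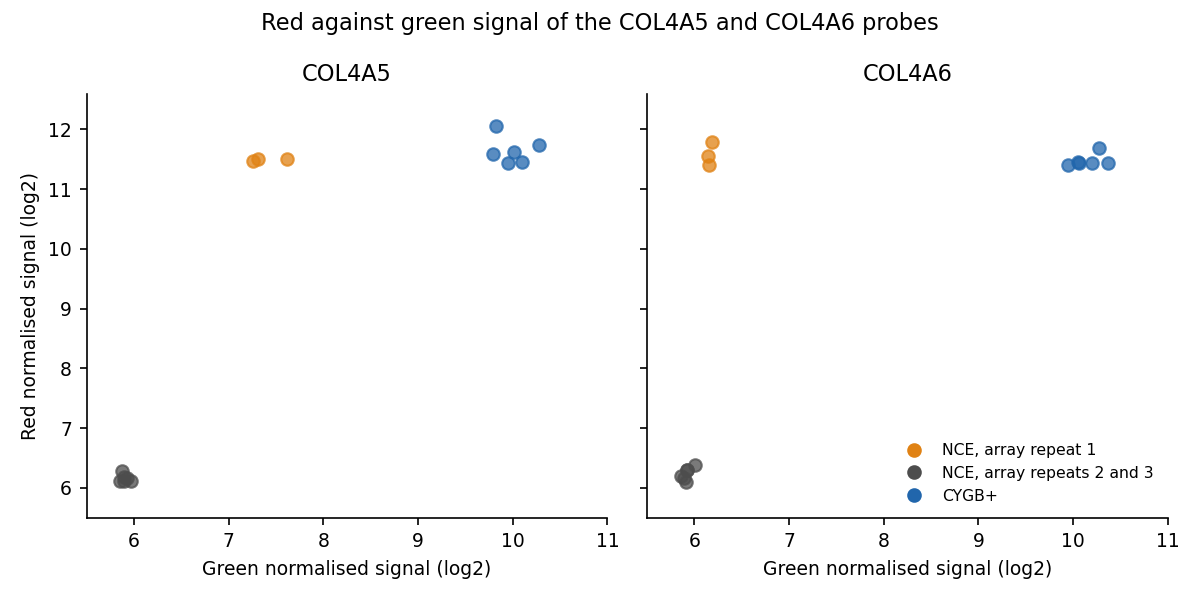
Red against green log2 normalised signal of the COL4A5 probe (left) and the COL4A6 probe (right), 1 point per array. The 6 NCE arrays of repeats 2 and 3 are low in both channels, the CYGB+ arrays high in both, and the 3 NCE arrays of repeat 1 high in red, with green at 7.26 to 7.62 for COL4A5 and 6.14 to 6.18 for COL4A6.

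COL4A1 and COL4A2, the chains of the widespread network, were well above background on all 15 arrays. Neither separated the groups when all arrays were used. COL4A1 replicate means were 8.71, 8.71 and 8.82 in NCE and 8.86, 8.36 and 8.26 in CYGB+, a difference of -0.25 ± 0.19 (SE). One CYGB+ array, repeat 1 of biological replicate 1, read 9.42 for COL4A1 while the other 5 read 8.13 to 8.47, below the lowest NCE array at 8.61. Without that array, which was singled out after seeing its value, the COL4A1 difference was -0.44 and past the limma threshold, as it was without the whole of CYGB+ replicate 1 (-0.43) and without the 4 arrays that correlated least with their group (-0.45). Each of these settings leaves out that same array, so they are not separate results, and nothing is read from the call. COL4A2 replicate means were 12.56, 12.35 and 12.48 in NCE and 11.99, 12.40 and 12.15 in CYGB+, a difference of -0.28 ± 0.13 (SE). The same array was the lowest for COL4A2, at 11.65 against 12.08 to 12.43 on the other CYGB+ arrays. On slide 2 alone the differences were -0.29 for COL4A1 and -0.43 for COL4A2.

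COL4A3 and COL4A4 encode the partners of COL4A5 in the glomerular trimer. COL4A3 was well above background on no array of either group, so only a limit is known for it. Its signal lay between 5.89 and 6.05 on all 15 arrays. COL4A4 was dim but called well above background on 8 of 9 NCE and 6 of 6 CYGB+ arrays. Its replicate means were 6.72, 6.42 and 6.56 in NCE and 7.02, 6.65 and 6.75 in CYGB+, a difference of 0.24 ± 0.14 (SE) with overlapping groups. The sign turned on slide 2, where the NCE array read 7.03 and the CYGB+ arrays averaged 6.81, a difference of -0.22. The highest CYGB+ value of COL4A4, 7.40, came from the array that stood apart for COL4A1.

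Differences were then set side by side within each head-to-head pair, since levels of different probes share no scale. The COL4A5 and COL4A6 differences had the same sign, at 3.59 and 4.15. Both were taken against NCE values mostly below the call. With the limits described above, the differences were at least 3.48 for COL4A5 and 4.06 for COL4A6 over all NCE arrays. Neither the gap between the 2 genes nor which of them changed more was measured. Their fitted values lay 0.56 apart with all arrays, 0.14 without the NCE arrays of repeat 1 and 0.13 on slide 2. COL4A1 and COL4A2 differences lay 0.03 ± 0.29 (SE) apart, both negative. COL4A3 was below the call throughout, so no difference within its pair with COL4A4 was measured.

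**Figure D4:**
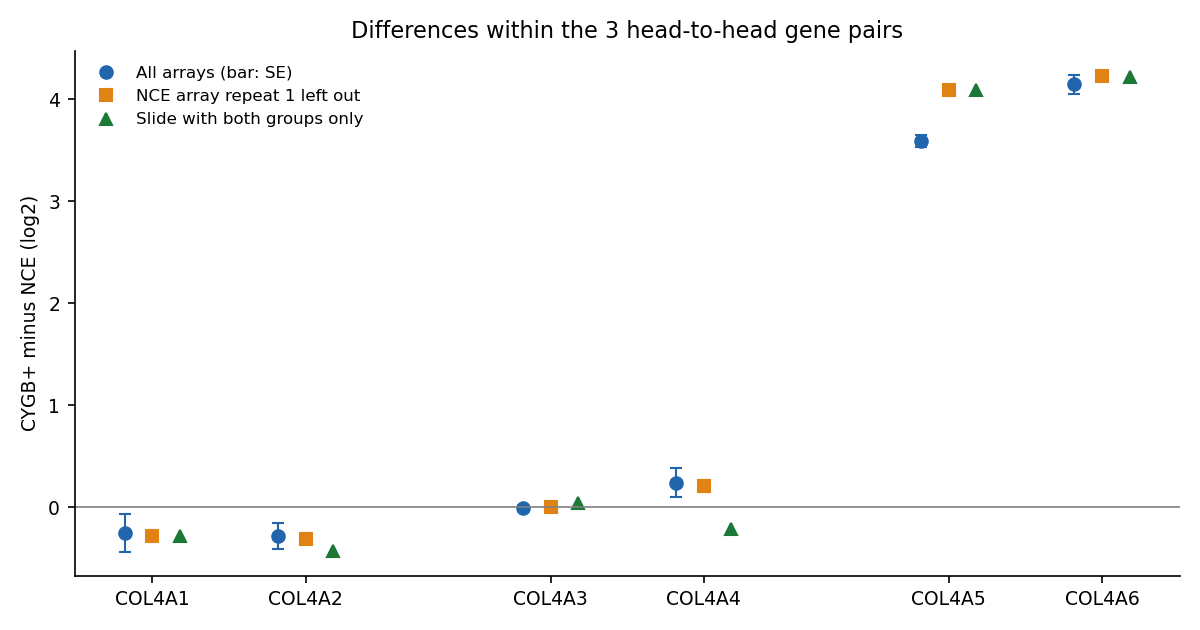
Difference in green log2 signal, CYGB+ minus NCE, for the 6 genes set out by head-to-head pair, from all arrays (circles, bars 1 SE), without NCE array repeat 1 (squares) and from the slide that held both groups (triangles). COL4A5 and COL4A6 lie between 3.59 and 4.23, and the other 4 genes between -0.43 and 0.24. The bars leave out the spread between array repeats.

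As background for the pairs, 2810 pairs of genes in the RefSeq table start head to head within 1000 bases, and 771 of them had a tested probe for both genes. Differences had the same sign in 444 of these pairs (57.6%), with a median gap of 0.24. Both genes were past the threshold in 22 pairs, 20 of them with the same sign. COL4A5/COL4A6 was among those 20. It was the 1 pair in which both genes differed by more than 1 on the log2 scale in the same direction. Since this comparison chose the pair, and both probes passed the filter only through the CYGB+ arrays, nothing is read from that.

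For COL4A1 and COL4A2, which were measured on every array, the genes with the most similar pattern over the 6 biological replicates were taken by Pearson's r among 13741 probes, as a description over few samples. HNRNPA1 (r = 0.994), NAA30 (0.992) and MPRIP (0.991) came closest to COL4A1. CRABP2 (0.988), MAP3K9 (0.987) and RASGEF1A (0.986) came closest to COL4A2. The COL4A1 pattern includes the CYGB+ array that read 9.42. Whether any of these genes shares control with a collagen gene was not tested.

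The other genes that make, carry, link, bind or break down type IV collagen were read from the same limma fit, in 7 lists of 99 genes. Of these, 77 were tested, 8 were higher and 11 were lower in CYGB+, with a median difference of -0.10 against 0.01 over all tested probes, of which 5.56% were higher and 5.37% lower. Values below are green log2 differences, CYGB+ minus NCE, with adjusted p from limma over all tested probes and n = 3 against 3.

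Among 17 synthesis and folding genes, 14 were tested, of which 2 were higher and 1 was lower. SPARC, a collagen-binding glycoprotein of basement membranes, rose by 1.65 ± 0.12 (SE), from 8.85 to 10.50 (3.14-fold, adjusted p = 0.00246). P3H2, the prolyl 3-hydroxylase that modifies type IV collagen, rose by 0.81 ± 0.15 (1.76-fold, adjusted p = 0.0194). P4HA1, a catalytic subunit of prolyl 4-hydroxylase, fell by 1.07 ± 0.09 (adjusted p = 0.00381). The other hydroxylases did not pass: P4HA2 differed by -0.03, P3H1 by -0.10, P3H3 by -0.11, PLOD1 by -0.22 and PLOD3 by -0.23. PLOD2, a lysyl hydroxylase, differed by 0.48 ± 0.13 (adjusted p = 0.0553).

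Secretion genes act in the enlarged COPII carriers that export collagen. Of 8 tested, none was higher and 2 were lower, namely SEC23A by -0.48 ± 0.10 (adjusted p = 0.0308) and SEC24D by -0.46 ± 0.09 (adjusted p = 0.0220), both coat subunits. With the slide as a term they stood at -0.80 (adjusted p = 0.139) and -0.11 (adjusted p = 0.851). Among the 7 tested cross-linking genes only PXDNL, a relative of peroxidasin, passed, at 1.06 ± 0.11 (2.09-fold, adjusted p = 0.00469). PXDN, the peroxidasin that forms the sulfilimine bond between type IV collagen trimers, differed by -0.02 ± 0.13. No tested receptor of 5 passed. Of the integrin subunits, ITGA1 differed by -0.10, ITGB1 by -0.10 and ITGA2 by -0.69 ± 0.26 (adjusted p = 0.134).

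Of 28 basement membrane partners, 18 were tested, 2 were higher and 3 were lower. NPNT, the integrin ligand nephronectin, rose by 2.24 ± 0.15, from 6.16 to 8.40 (adjusted p = 0.00246). It was well above background on 1 of 9 NCE and 6 of 6 CYGB+ arrays, so its difference moved with the processing, from 2.02 to 5.74 over the alternatives. NPNT passed the filter only through the CYGB+ arrays, and its NCE level is mostly an upper limit. Its SE and adjusted p are therefore given as a description. LAMA1, the laminin α1 chain, rose by 1.00 ± 0.18 (adjusted p = 0.0170), but its second probe differed in call or sign. COL18A1, the source of endostatin, fell by 1.05 ± 0.16 (adjusted p = 0.0118), and HSPG2, perlecan, fell by 0.58 ± 0.13 (adjusted p = 0.0341).

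Of 16 degradation genes, 11 were tested, 2 were higher and 3 were lower. MMP7 (matrilysin) fell by 1.52 ± 0.17 (adjusted p = 0.00526), MMP14, a membrane-bound metalloproteinase, fell by 1.24 ± 0.11 (adjusted p = 0.00377), and the inhibitor TIMP3 fell by 1.09 ± 0.11 (adjusted p = 0.00416). CTSL, a lysosomal cathepsin, rose by 0.64 ± 0.15 (adjusted p = 0.0372). MMP2, a gelatinase that cuts type IV collagen, was well above background on no array, and MMP9, the other gelatinase, differed by 0.08.

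The 14 genes listed as regulators of type IV collagen promoters were all tested, and 1 was higher and 2 were lower. TGFB2 fell by 1.28 ± 0.15 (adjusted p = 0.00550) and the receptor TGFBR2 fell by 0.68 ± 0.10 (adjusted p = 0.0103), while CCN2, a target of TGF-β signalling, rose by 0.80 ± 0.15 (adjusted p = 0.0212). SP1, which binds GC boxes, differed by 0.06, and the CCAAT-binding subunits NFYA, NFYB and NFYC by 0.37, 0.21 and 0.14, none past the threshold for the probe that stood for the gene. Other probes differed: 2 of the 3 other NFYC probes were higher, by 0.66 (adjusted p = 0.0194) and 0.56 (adjusted p = 0.0235), with the third at -0.0076, and the second NFYA probe stood at -0.21 (adjusted p = 0.185). With the slide as a term, 10 of the 17 pathway genes named here as past the threshold remained past it, and all 17 had the same sign. P4HA1, SEC23A, SEC24D, PXDNL, LAMA1, CTSL and TGFBR2 did not remain, with adjusted p from 0.0645 to 0.851, and COL18A1 moved to -1.62 (adjusted p = 0.00620). Among the 8 fibroblast markers COL1A2 (-1.32, adjusted p = 0.00308) and VIM (-0.95, adjusted p = 0.0349) were lower in CYGB+, COL1A1 differed by 0.10 (adjusted p = 0.700), and DCN, LUM, COL3A1, THY1 and PDGFRB were well above background on no array. The mean level of the fibroblast list was 7.01 to 7.13 in NCE and 6.73 to 6.85 in CYGB+, and its part in the pathway differences was not tested.

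**Figure D5:**
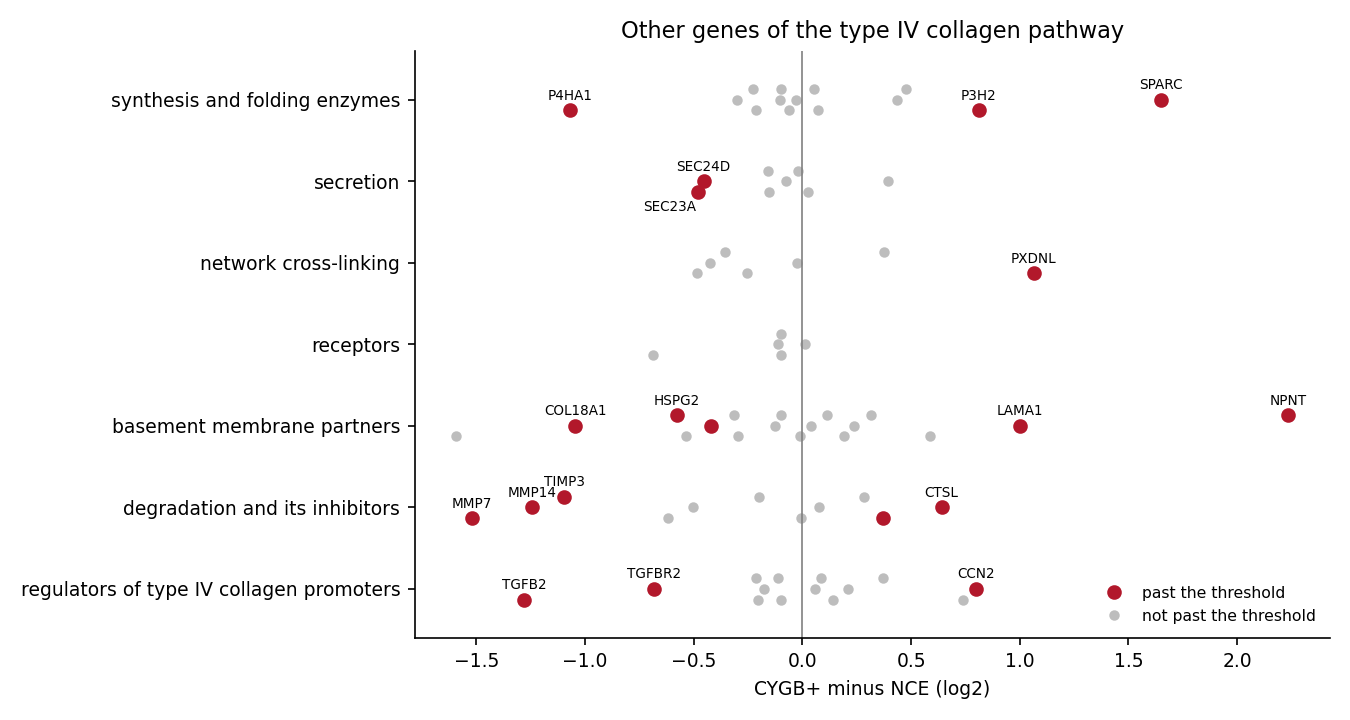
Green log2 difference, CYGB+ minus NCE, for the tested genes of 7 lists of the type IV collagen pathway, 1 point per gene, with genes past an adjusted p of 0.05 in red and larger. NPNT (2.24) and SPARC (1.65) lie farthest to the right among the genes past it, and MMP7 (-1.52) and TGFB2 (-1.28) farthest to the left.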

How the data were processed

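RNA of 15 samples (50 ng each) was labelled and hybridised by the authors to 2-colour Agilent SurePrint G3 arrays, and the deposited scanner files (Feature Extraction 10.7.3.1, design build hg19 per the file headers) give intensity per spot, with flags coded as other values per the file headers. No mean signal was used here, so the median green intensity was taken in its place, with the median local background. It was corrected by normexp (offset 50, limma 3.58.1, R 4.3.3), quantile normalised between arrays as in the methods, and put on the log2 scale. Control spots and outlier-flagged spots were left out, spots of a probe averaged, and array repeats averaged per biological replicate. A probe counted as well above background on an array when all its spots were flagged so. Groups were compared with lmFit and eBayes and Benjamini-Hochberg adjustment. The fit was tested on simulated data for this comparison with 21993 probes, and called 45 and 47 of 50 probes changed by -2 and 2 on the log2 scale and 37 and 39 of 50 changed by -1 and 1. Symbols came from RefSeq accessions: 25422 of 27310 such probes matched. For a gene with several probes, the one with the highest mean stood for it.

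The authors' deposited value table holds natural log values of the processed signal for 15030 matched probes, centred per probe near the CYGB+ median; its column medians ran from -0.16 to 0.18. It was an alternative after division by ln 2, and holds 2 of the collagen probes. The number of arrays limits the precision. Same-numbered replicates of the groups deviated together (correlations 0.22, 0.24 and 0.33 over 17119 probes), but only replicate 3 correlated best with its own number. The correlations passed a limit of 0.1, but pairing by number was not established. A fit with the number as a block was therefore run only as an alternative. The members and lists were chosen with earlier results of these data known. Pathway genes were named by rule: up to 4 per list with the largest difference among those past the threshold with groups that did not overlap, plus hydroxylases, integrin subunits and peroxidasins; MMP2, MMP9, SP1 and the NFY genes were added as background. Alternatives were other background corrections, scalings, filters, units of replication, a slide term, the methods' t-test and left-out replicates or arrays. Figures were drawn in matplotlib 3.10.9.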

Additional observations from a re-analysis of the deposited data

Results flagged for a closer look

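Among the 9 NCE arrays, COL4A1 on repeat 2 of biological replicate 3 (8.97) and COL4A4 on repeat 3 of biological replicate 1 (7.03) lay far above the rest of their group. Among the 6 CYGB+ arrays, repeat 1 of biological replicate 1 lay far above the others for both COL4A1 (9.42) and COL4A4 (7.40). For independent, normally distributed values chance marks about 1 in 20 groups in this way, but these arrays are repeats within biological replicates. All the arrays named here were among the 4 that correlated least with their own group. Their median r was 0.01 for NCE replicate 3 repeat 2, -0.16 for NCE replicate 1 repeat 3 and -0.04 for the CYGB+ array. NCE replicate 1 repeat 3 was also the only NCE array on slide 2.

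The red channel, which enters no test, held high signal on the 3 NCE arrays of repeat 1, with medians of 11.50 for COL4A5 and 11.55 for COL4A6, against 6.15 and 6.25 on the other 6 NCE arrays. Set out within red alone, as a description, CYGB+ minus NCE was 3.71 for COL4A5 and 3.45 for COL4A6, and 5.48 and 5.23 without those 3 arrays.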

How the results depend on the processing

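COL4A5 and COL4A6 were higher in CYGB+ under all 23 alternatives that gave a value for them, by 2.60 to 6.86 and 3.99 to 8.37. Both kept the main values, 3.59 and 4.15, where only the filter, the test or the unit of replication changed, which was fixed in advance. Their differences and the gap between them (COL4A6 minus COL4A5) were 4.33, 5.19 and 0.86 with no background correction, 6.86, 8.37 and 1.51 with the processed signal and quantile normalisation, 6.86, 8.37 and 1.51 with it scaled to the 75th percentile, and 4.47, 5.22 and 0.75 with an offset of 16. COL4A5 and the gap were 4.17 and 0.054 with a slide term, 4.09 and 0.13 on slide 2, 4.09 and 0.14 without NCE array repeat 1, 2.60 and 1.39 with NCE repeat 1 alone, and 3.37 and 0.76 without the 4 arrays that correlated least with their group; settings that leave out arrays, or use the cell replicate as the unit, were chosen after seeing the data. COL4A4 turned to -0.20 (gap to COL4A3 -0.23) with the slide term and to -0.22 (gap -0.26) on slide 2. COL4A3, never above background, was -0.11 with no background correction, 0.073 and -0.16 with the processed signal under quantile and percentile scaling (gap 0.55 in the latter) and 0.043 on slide 2. COL4A6 was on for 3 NCE arrays by the looser flag, positive and significant. A filter for signal on every array left 0 collagen probes past the threshold, as it drops COL4A5 and COL4A6, and the value table, which lacks both, also 0.

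The count past the threshold, 2404, was 1518 with normexp and 75th percentile scaling, 722 with the slide term, 4884 with arrays as the unit, 7885 with the cell replicate as the unit, 1444 in the value table, 5631 without the 4 arrays and 4116 without repeat 1 of CYGB+ replicate 1. The methods' t-test called 5402 probes before adjustment and 688 after Benjamini-Hochberg. Pathway genes past it, 19 in all, were 11 with the slide term, 33 with arrays and 41 with the cell replicate as the unit, 9 in the value table and 10 by the methods' t-test. Leaving out 1 replicate gave 488 to 2412 probes and 8 to 21 pathway genes. The fewest probes came without NCE replicates 2 (488) and 3 (490), then 1 (1175) and CYGB+ replicate 3 (1287), and 2 to 3 collagen probes passed. The third was COL4A1, without CYGB+ replicate 1 (-0.43), and it also passed without repeat 1 of that replicate (-0.44) and without the 4 arrays (-0.45). All of these settings leave out the same array, repeat 1 of CYGB+ replicate 1. With 1 replicate left out, COL4A5 stayed at 3.56 to 3.64 and COL4A6 at 4.06 to 4.22. With the replicate block 2971 probes and 24 pathway genes passed, and it changed no call of a collagen probe. Of the 17 named pathway genes 5 passed in every alternative with a test, and none changed sign. Leaving out NCE replicate 1, 2 or 3 took 6, 7 and 9 of them below the threshold, and leaving out CYGB+ replicate 2 or 3 took 4 each. The cause of these changes was not tested. Dim signal limits COL4A3 in both groups, COL4A6 on all NCE arrays and COL4A5 on 6 of 9 NCE arrays to bounds.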
